A study of Mus musculus with 10 samples.

Results

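The class II histone deacetylases of the mouse left ventricle were examined at the level of their RNA, with Hdac6 among them because the study tested an HDAC6 inhibitor. The members were chosen by gene symbol and were Hdac4, Hdac5, Hdac7 and Hdac9 of class IIa and Hdac6 and Hdac10 of class IIb. All 6 were listed among 29564 genes, and all 6 were among the 13302 genes tested, which were protein-coding, not mitochondrially encoded and had at least 1 count in 9 of 10 mice. The 5 control mice, TT-583 to TT-587, were wild-type males, C57BL6 in the labels and C57BL/6J in the study's methods, that were not operated on and ate chow with 10% of kilocalories from fat. The 5 mice from TT-588 up to TT-592, named HFD+mTAC, had the same genotype, strain and sex. They were operated on at 11 weeks of age by moderate transverse aortic constriction (mTAC), which narrows the aorta and puts the left ventricle under pressure, and afterwards ate a high-fat diet (HFD) with 60% of kilocalories from fat. The induction lasted 16 weeks. Vehicle is the treatment label of all 10 mice, and the protocol in the labels describes it as given to HFD+mTAC mice every day for 6 to 9 weeks. The operation and the diet came together in these mice, so that their separate parts in any difference cannot be told apart. If control mice were not dosed, the same holds for the vehicle.

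Class II histone deacetylases share a catalytic domain with the other zinc-dependent deacetylases but differ from class I in size, in partners and in movement within the cell. Class IIa proteins have weak deacetylase activity of their own, bind MEF2 transcription factors in the nucleus and bring corepressors to their targets, and leave the nucleus when kinases such as CaM kinase II and protein kinase D phosphorylate them. In heart muscle this movement is known for restraining or releasing the hypertrophic gene programme. Among class IIb, HDAC6 acts mainly in the cytoplasm on α-tubulin and other proteins and binds ubiquitin, and HDAC10 removes acetyl groups from polyamines. These activities are set largely after translation, so that RNA measures the supply of message and not enzyme activity.

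All 6 members lie on the minus strand of GRCm38. Hdac4 spans chr1:91928779-92195699, Hdac5 chr11:102194432-102230166, Hdac7 chr15:97792664-97844502, Hdac9 chr12:34047580-34917095, Hdac6 chrX:7930120-7947889 and Hdac10 chr15:89123307-89128700. Hdac9 is the longest of these loci. Hdac7 overlaps the protein-coding gene Slc48a1 on the opposite strand, Hdac5 holds Mir8101, Hdac4 overlaps Gm37048, Gm26720 and Gm37036, and Hdac9 overlaps Gm18025, Gm47357, 4921508M14Rik and Gm24429. The annotation holds no gene that overlaps Hdac6 or Hdac10. The libraries were stranded by the kit, but the strand setting of the quantification is not given in the sources used here, so reads from opposite-strand partners cannot be told apart with certainty.

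RefSeq start sites on GRCm38 matched 5 of the 6 members, with 9 start sites in all, and the 250 bases before 4 of these starts are printed 5′ to 3′ on the minus strand. Hdac4 is shown because it was the member with the largest difference between the groups, Hdac6 because its product is the target of that inhibitor, and Hdac5 and Hdac9 because they are class IIa members with unlike base composition. Capitals mark matches to 4 motifs on either strand, so that a capital run can be the reverse complement of the letters given. The GC box was searched as GGGCGG. The CCAAT box was searched by the letters of its name. The TATA box was searched as TATAAA. The MEF2-like site was searched as letters beginning with CTA, then any 4 bases, then TAG. No overlap among these matches was found in the printed windows.
Hdac4, chr1:92180342-92180591: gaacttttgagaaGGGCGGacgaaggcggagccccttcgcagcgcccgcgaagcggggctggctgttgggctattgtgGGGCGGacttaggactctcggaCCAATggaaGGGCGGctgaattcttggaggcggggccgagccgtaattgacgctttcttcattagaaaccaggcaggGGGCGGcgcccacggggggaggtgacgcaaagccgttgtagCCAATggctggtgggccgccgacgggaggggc
Hdac6, chrX:7947890-7948139: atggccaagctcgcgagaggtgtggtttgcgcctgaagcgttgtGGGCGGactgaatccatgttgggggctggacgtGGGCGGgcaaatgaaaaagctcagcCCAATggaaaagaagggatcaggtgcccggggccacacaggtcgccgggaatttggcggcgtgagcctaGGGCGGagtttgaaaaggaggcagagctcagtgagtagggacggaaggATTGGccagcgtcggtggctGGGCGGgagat
Hdac5, chr11:102230173-102230422: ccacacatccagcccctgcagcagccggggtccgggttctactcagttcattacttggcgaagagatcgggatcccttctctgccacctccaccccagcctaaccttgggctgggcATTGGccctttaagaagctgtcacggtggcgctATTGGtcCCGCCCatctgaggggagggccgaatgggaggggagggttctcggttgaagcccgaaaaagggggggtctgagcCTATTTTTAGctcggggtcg
Hdac9, chr12:34917096-34917345: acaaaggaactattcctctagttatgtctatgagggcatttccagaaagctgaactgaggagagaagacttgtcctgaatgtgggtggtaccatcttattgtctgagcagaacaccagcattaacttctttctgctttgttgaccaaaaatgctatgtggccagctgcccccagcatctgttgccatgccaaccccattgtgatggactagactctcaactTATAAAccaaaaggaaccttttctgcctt

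The Hdac4 and Hdac6 windows were alike in the motifs counted. Each held 4 GC boxes and 2 CCAAT boxes. Of 32851 windows of this length, 32.7% had any GC box and 33.8% any CCAAT box, and the share with as many matches was not counted. Their GC content was 65.2 and 61.2% and they held 23 and 17 CpG, where the median window had 52.4% and 6. The Hdac5 window held 2 CCAAT boxes, 1 GC box and 1 MEF2-like match, a motif that 3.2% of windows held. The Hdac9 window had a GC content of 44.4%, no CpG and 1 TATA box, which 12.4% of windows held. A further start of Hdac9, at chr12:34528889, had a MEF2-like match in its own window, CTAGCTTTAG. These matches describe letters in the sequence and are not evidence of binding.

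Each library held 34.2 to 53.7 M estimated counts, and 12.6 to 21.1 M of them fell on the genes tested. Mitochondrially encoded genes took 43.8 to 50.9% of counts in control mice and 46.4 to 52.7% in HFD+mTAC mice, and the control mice TT-583 and TT-584 had the smallest shares. Between 129 and 2506 counts fell on each member in each mouse. Markers of ventricular muscle were abundant, whereas none of 6 adipocyte markers was tested and their counts were at most 28 per mouse. Of 5 atrial markers, Myl7 and Sln had at most 21 and 3 counts, while Myl4, Nppa and Stard10 were among the genes tested. In whole tissue, fewer cells of a type and less RNA per cell cannot be told apart.

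No member passed an adjusted p of 0.05 in edgeR's quasi-likelihood test over the 13302 genes, a threshold that 0.0677% of all genes passed (0.0526% higher and 0.015% lower). Hdac4 was the exception among the 6 at an unadjusted p under 0.05, where the background was 8.26% of genes, and it was also the member whose groups did not overlap in CPM (counts scaled to a common library size with TMM factors), where the background was 1.9% of genes, or 1.02% in the higher direction. Values were higher in HFD+mTAC mice for 5 of 6 members, all but Hdac9, against 49.7% of all genes. Set against these percentages, 1 member of 6 is not a result about the class, and what follows concerns Hdac4 itself. Among all genes tested, 41 (0.308%) had a p at or below that of Hdac4, and 10.6% had a log2 fold change at least as far from 0.

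**Figure D1:**
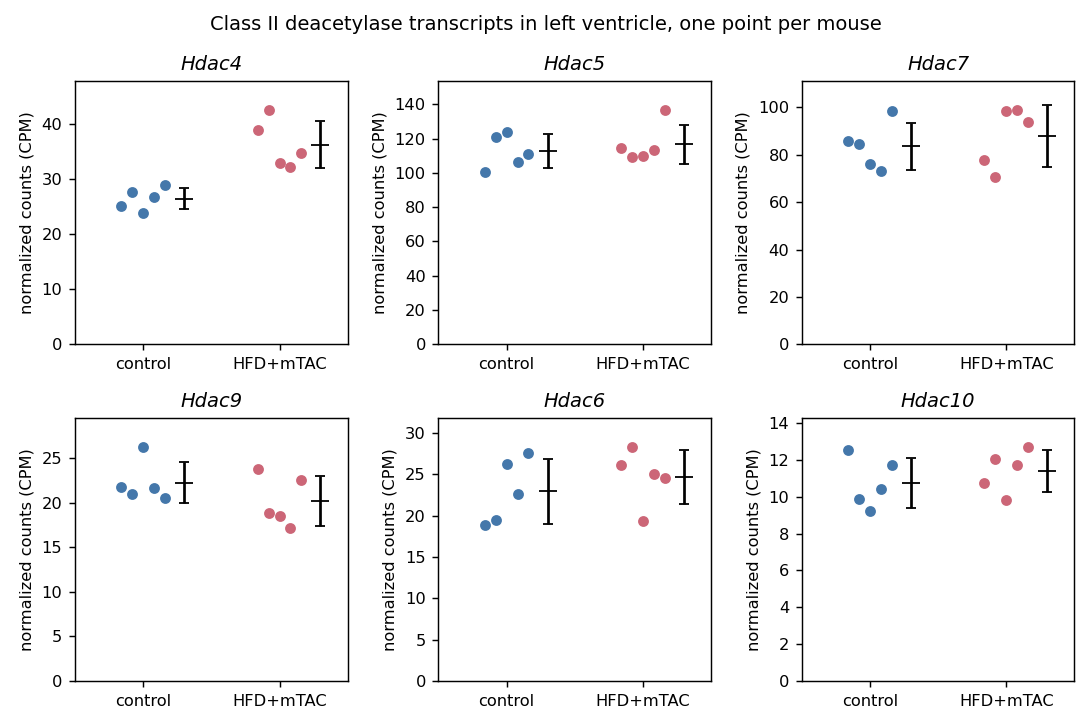
CPM of each member in every mouse, 1 panel per gene, with control and HFD+mTAC mice side by side as points and the group mean ± SD. Only Hdac4 has groups that do not overlap, with control mice at 23.9 to 28.9 CPM and HFD+mTAC mice at 32.3 to 42.6 CPM.

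Hdac4 encodes a class IIa corepressor that CaM kinase II binds and phosphorylates. Control mice TT-583 to TT-587 had 25.2, 27.7, 23.9, 26.8 and 28.9 CPM, and the HFD+mTAC group, in the same numerical order, had 38.9, 42.6, 33.0, 32.3 and 34.8 CPM. Every HFD+mTAC mouse was above every control mouse, with TT-588 and TT-589 the highest. The means were 26.5 ± 1.98 and 36.3 ± 4.34 CPM (SD, n = 5 each), a log2 difference of 0.46 (SE 0.10, 95% interval 0.24 to 0.67), or 1.37-fold with an interval of 1.18 to 1.596. The edgeR p was 0.000611 and the adjusted p 0.198, so the difference was outside the spread of the mice but was not called among all genes. DESeq2 gave a log2 difference of 0.46 and an adjusted p of 0.00921, which is past the threshold, and called 0.902% of genes. Over the 12 other settings tried, the adjusted p ranged from 0.00921 to 0.478, and leaving out each mouse gave log2 differences of 0.40 to 0.50 and adjusted p of 0.182 to 0.459.

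The size of the Hdac4 difference depended on the scale. On the deposited TPM scale (transcript abundance corrected for length), control mice had 0.286, 0.351, 0.221, 0.227 and 0.232 TPM and HFD+mTAC mice 0.402, 0.346, 0.410, 0.406 and 0.491 TPM. The groups touched there, since TT-584 was just above TT-589. The genes tested took 12.6 to 19.3% of the deposited TPM listed for each mouse, most of all in TT-584. Scaled anew over the genes tested, Hdac4 had 1.596 to 1.92 TPM in control mice and 2.85 to 3.14 TPM in HFD+mTAC mice, with means of 1.71 ± 0.128 and 2.999 ± 0.116 TPM (SD, n = 5 each). The groups then stood far apart against their spread, and limma on log2(TPM + 1) gave a difference of 0.56 (SE 0.07) and an adjusted p of 0.0561. The share of all genes whose groups do not overlap on this scale was not counted. Values on it also rest on deposited lengths that exceeded the longest annotated Hdac4 transcript in all 10 mice. With the deposited lengths as an offset in edgeR the log2 difference was 0.78 (adjusted p = 0.084), over 1.5 times the value without them.

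The deposited effective length of Hdac4 was therefore examined. It was 15313, 14060, 15695, 16637 and 16953 bases in control mice and 14919, 15865, 10832, 11061 and 12166 bases in HFD+mTAC mice. The HFD+mTAC mice TT-590, TT-591 and TT-592 had shorter values than the other 7 mice. The log2 difference was -0.29 (SE 0.12), with an adjusted p of 0.719 in limma's test over all genes, and Hdac4 was among the genes under 0.05 before adjustment. That held for 3.74% of all genes, and none (0%) passed after adjustment. In all 10 mice the effective length exceeded the longest Hdac4 transcript of 8100 bases in the annotation used here (GENCODE M21), which is not the release named in the methods. The cause was not tested.

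Within the class, Hdac4 took 8.35 to 10.3% of class II counts in control mice and 10.7 to 15.1% in HFD+mTAC mice. The ratio of Hdac4 to Hdac9 CPM was 0.909 to 1.41 in control mice and 1.54 to 2.25 in HFD+mTAC mice, again with no overlap. Against Hdac5 the ratio was 0.192 to 0.261 in control mice and 0.255 to 0.389 in HFD+mTAC mice, and against Hdac6 it was 0.908 to 1.42 and 1.29 to 1.70, both with overlap. These ratios contain Hdac4 itself and describe its difference relative to its relatives. The 8 cardiomyocyte markers were all lower in HFD+mTAC mice, against 49.7% of all genes higher, with 2 at an unadjusted p under 0.05 (background 3.87% lower) and none after adjustment. Their sum was 63374 to 68467 CPM in control mice and 52860 to 60731 CPM in HFD+mTAC mice. The 8 fibroblast markers summed to 1212 to 1679 CPM in control and 1241 to 1717 CPM in HFD+mTAC mice, the 8 endothelial markers to 1779 to 2293 and 1792 to 2560 CPM, and 7 macrophage markers to 284 to 449 and 305 to 410 CPM. Erythrocyte markers varied most between mice, with sums of 157 to 1827 CPM in control and 170 to 1851 CPM in HFD+mTAC mice. Sums of 6 smooth muscle and pericyte markers were 1726 to 2407 CPM in control and 1662 to 2753 CPM in HFD+mTAC mice. Those of 3 lymphocyte markers were 2.97 to 5.86 and 2.92 to 4.68 CPM. For 4 Schwann cell and neuron markers they were 14.5 to 19.3 and 14.9 to 21.8 CPM. The 3 atrial markers tested were all lower in HFD+mTAC mice, none at an unadjusted edgeR p under 0.05. They summed to 242 to 413 CPM in control and 155 to 378 CPM in HFD+mTAC mice. The part of these markers in the Hdac4 difference was not tested.

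Hdac5, a class IIa member whose loss sensitises the heart to pressure load, had 100.4, 121, 124, 106 and 111 CPM in control mice and 115, 109, 110, 113 and 136 CPM in HFD+mTAC mice. The groups overlapped throughout, and TT-592 stood above all other mice. The means were 112 ± 9.85 and 117 ± 11.3 CPM (SD, n = 5 each), with a log2 difference of 0.05 (SE 0.09, edgeR adjusted p = 0.928). The 95% interval, -0.14 to 0.25, spans 0.907-fold to 1.19-fold. Without TT-592 the log2 difference was -0.01, so that its sign rests on this mouse.

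Hdac7 is known mainly for vascular integrity through its role in endothelial cells. Control mice had 85.8, 84.5, 76.1, 73.3 and 98.4 CPM, and HFD+mTAC mice 77.8, 70.6, 98.5, 98.8 and 93.9 CPM. Both groups held low and high mice. The means were 83.6 ± 9.83 and 87.9 ± 12.9 CPM (SD, n = 5 each), with a log2 difference of 0.07 (SE 0.11, interval of the fold 0.886 to 1.25, edgeR adjusted p = 0.921).

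Hdac9, a MEF2-responsive gene whose product restrains MEF2 in turn, was the member with lower values in HFD+mTAC mice. Control mice had 21.7, 21.01, 26.2, 21.7 and 20.5 CPM and HFD+mTAC mice 23.8, 18.9, 18.5, 17.1 and 22.5 CPM. TT-585 was the highest mouse, while 3 HFD+mTAC mice were below all controls and the other 2 were not. The means of 22.2 ± 2.30 and 20.2 ± 2.84 CPM (SD, n = 5 each) gave a log2 difference of -0.14 (SE 0.12, interval of the fold 0.761 to 1.08, edgeR adjusted p = 0.814).

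Hdac6, the tubulin deacetylase, had 18.9, 19.5, 26.3, 22.6 and 27.6 CPM in control mice and 26.1, 28.3, 19.4, 25.04 and 24.5 CPM in HFD+mTAC mice. TT-583 and TT-584 among the controls and TT-590 among the HFD+mTAC mice were low, and the groups overlapped over nearly their whole ranges. The means were 23.0 ± 3.93 and 24.7 ± 3.30 CPM (SD, n = 5 each). The log2 difference was 0.11 (SE 0.14, edgeR adjusted p = 0.904) and the interval of the fold was 0.878 to 1.32, so that a rise of more than 1.32-fold or a fall to less than 0.878-fold lies outside it. With the mitochondrial share of each library as a covariate, the log2 difference was -0.00459 (adjusted p = 0.998).

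Hdac10, the polyamine deacetylase, had the fewest reads of the members. Control mice had 12.5, 9.90, 9.21, 10.4 and 11.7 CPM and HFD+mTAC mice 10.7, 12.1, 9.85, 11.7 and 12.7 CPM, with almost complete overlap. The means were 10.8 ± 1.35 and 11.4 ± 1.13 CPM (SD, n = 5 each), a log2 difference of 0.09 (SE 0.13, interval of the fold 0.878 to 1.28, edgeR adjusted p = 0.916). On log2(TPM + 1) limma gave 0.40 (adjusted p = 0.802), against 0.09 on counts. Hdac10 effective lengths ranged from 1885 bases in TT-583 to 5207 bases in TT-587.

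**Figure D2:**
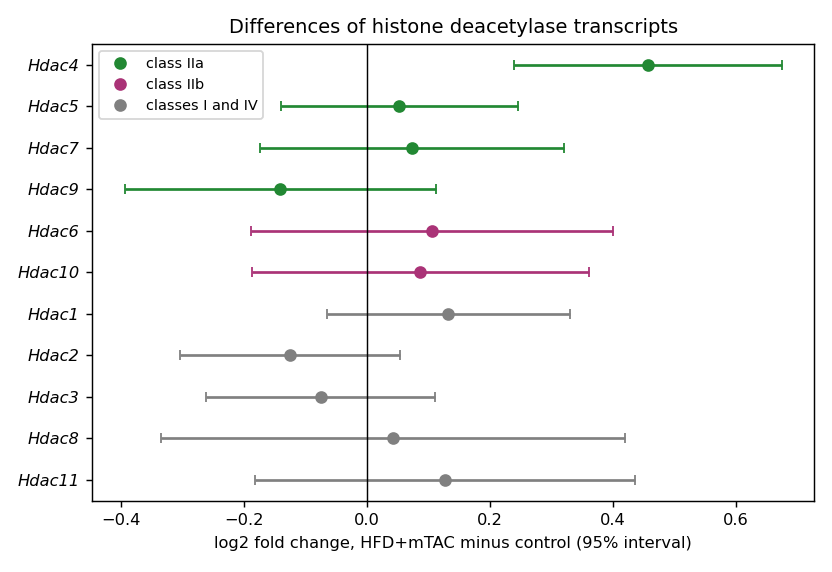
Log2 fold change of HFD+mTAC against control mice for the 11 classical histone deacetylases, as edgeR estimates (points) with 95% intervals (lines). The interval of Hdac4, 0.24 to 0.67, lies above 0, and the other 5 class II intervals include 0.

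The 5 deacetylases of classes I and IV gave no call either. Hdac1 and Hdac11 were higher in HFD+mTAC mice by a log2 difference of 0.13 each (edgeR adjusted p = 0.778 and 0.887), Hdac8 was higher by 0.04 (adjusted p = 0.972), and Hdac2 and Hdac3 were lower with -0.12 and -0.08 (adjusted p = 0.764 and 0.887). Hdac3 is the catalytic partner of class IIa proteins in corepressor complexes, and averaged 56.3 ± 4.34 CPM in control and 53.5 ± 4.77 CPM in HFD+mTAC mice (SD, n = 5 each).

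Levels of different genes were compared on the deposited TPM, which are corrected for length. Over all 10 mice Hdac7 averaged 4.67 ± 1.31 TPM and Hdac5 4.03 ± 1.47 TPM, followed by Hdac9 with 0.830 ± 0.205, Hdac6 with 0.722 ± 0.188, Hdac10 with 0.652 ± 0.258 and Hdac4 with 0.337 ± 0.0928 TPM (SD, n = 10). Hdac7 and Hdac5 together made up 69.2 to 84.6% of class II TPM in each mouse, and class IIa 81.4 to 93.4%. Among all 11 classical deacetylases Hdac2 was highest with 15.1 TPM and Hdac4 lowest. The member with the largest difference between the groups was thus the least abundant of the 6 by this measure. Its TPM are counts divided by effective lengths that exceeded its longest annotated transcript in all 10 mice.

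**Figure D3:**
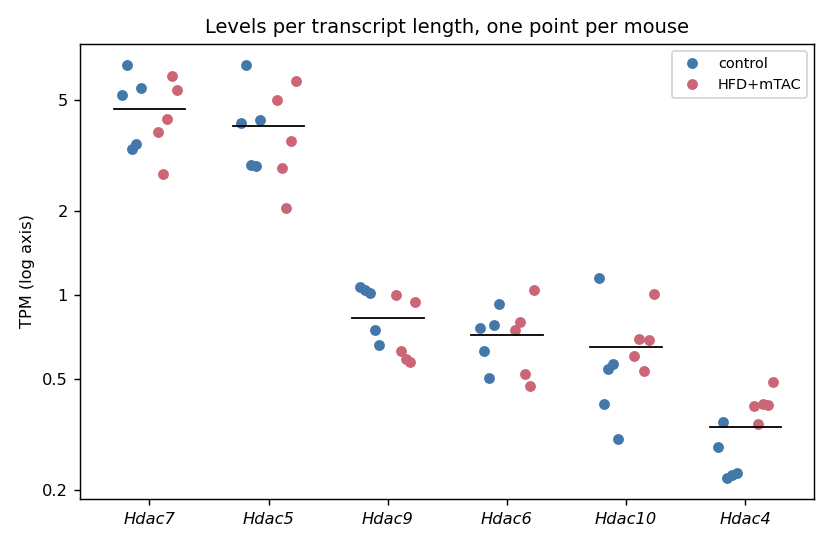
Deposited TPM of the 6 members in each of the 10 mice, on a log axis, in order of their mean (line), with control mice in blue and HFD+mTAC mice in red. Hdac7 and Hdac5 stand above the other 4 members, and Hdac4 is lowest with a mean of 0.337 TPM.

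Neighbours in this order were compared within mice on log2(deposited TPM + 1) with two-sided exact sign-flip permutation tests over the 10 mice, adjusted over 5 pairs. The pairs and their direction came from the means of the same 10 mice, so the p-values partly restate that order. Hdac5 was above Hdac9 by 1.41 ± 0.34 (SD) in 10 of 10 mice (exact permutation p = 0.00195, adjusted p = 0.00488), and Hdac10 was above Hdac4 by 0.29 ± 0.20 in 10 of 10 mice with the same p, the smallest this test can give. Hdac7 and Hdac5 differed by 0.19 ± 0.33 (permutation p = 0.105), Hdac9 and Hdac6 by 0.09 ± 0.21 (permutation p = 0.213) and Hdac6 and Hdac10 by 0.07 ± 0.24 (permutation p = 0.42), each within its spread. Counts divided by the length of the longest annotated transcript gave another order, with Hdac5 at 21.2 ± 1.89 and Hdac7 at 16.6 ± 2.13, then Hdac6 at 4.73 ± 0.702, Hdac4 at 3.88 ± 0.750, Hdac10 at 3.83 ± 0.423 and Hdac9 at 2.67 ± 0.335 CPM per kilobase (SD, n = 10). The high place of Hdac5 and Hdac7 held on both scales, and the lowest place of Hdac4 did not.

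Effective lengths differed between mice for most members. Hdac5 lengths ran from 3214 bases in TT-584 to 7169 bases in TT-590, a ratio of 2.23, and Hdac6 lengths from 4025 bases in TT-592 to 7556 bases in TT-585, a ratio of 1.88. Hdac10 had a ratio of 2.76, Hdac4 of 1.57, Hdac7 of 1.48 and Hdac9 of 1.20, where the median gene had 1.42. Hdac9 was thus the steadiest member, and 82.4% of genes had a smaller ratio than Hdac10. Lengths above the longest annotated transcript occurred in 10 mice for Hdac4, in 4 for Hdac6, in 2 each for Hdac5 and Hdac10 and in none for Hdac7 and Hdac9. No member's length differed between the groups after adjustment (limma, adjusted p of 0.719 or more).

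**Figure D4:**
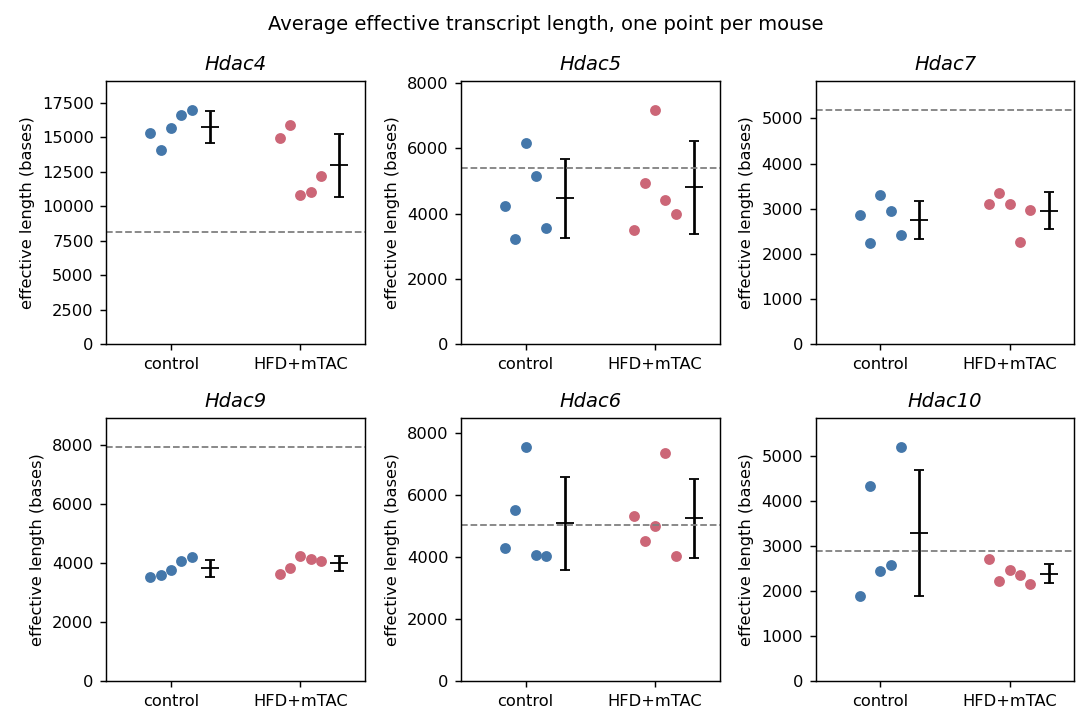
Deposited average effective length in bases of each member in every mouse, with the group mean ± SD and the longest annotated transcript as a dashed line. Hdac4 lies above its line of 8100 bases in all 10 mice, and TT-590, TT-591 and TT-592 have the shortest values for it.

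Genes that act on or with the class were counted from hand-written lists. Among kinases, phosphatases, Ywha adaptor proteins and export factors that govern where class IIa proteins sit, 34 of 35 genes were tested, with 16 higher and 18 lower in HFD+mTAC mice. None passed after adjustment and the median log2 difference was -0.00497, against -0.00157 over all genes. At an unadjusted edgeR p under 0.05 there were 0 higher and 2 lower genes (background 4.39% and 3.87%). The groups did not overlap in CPM for 1 of the 34, where the background was 1.9% of genes. The exportin Xpo1 had 79.6 to 97.4 CPM in control and 65.0 to 77.4 CPM in HFD+mTAC mice, with no overlap, and a log2 difference of -0.26 (SE 0.08, edgeR adjusted p = 0.350). Sik1, a kinase of class IIa proteins, averaged 287 ± 50.2 and 198 ± 52.5 CPM (SD, n = 5 each), a log2 difference of -0.54 (edgeR adjusted p = 0.404). Prkacb and Prkd3, a protein kinase A and a protein kinase D subtype, had the smallest p of the higher genes, with 0.17 and 0.14 on the log2 scale (adjusted p = 0.707 and 0.716).

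All 13 corepressors and bound proteins were tested, 8 higher and 5 lower, with a median log2 difference of 0.02. Ankra2, an ankyrin-repeat protein that binds HDAC4 and HDAC5, had a log2 difference of 0.33 (adjusted p = 0.641) and the repressor Bcl6 one of -0.31 (adjusted p = 0.610). Of the 12 transcription factors that class IIa proteins bind, 5 were higher and 7 lower, none at an unadjusted p under 0.05. The MEF2 genes went both ways, with 0.19 for Mef2d (adjusted p = 0.691) and -0.14 for Mef2c (adjusted p = 0.716), while Runx2 had 0.39 (adjusted p = 0.766) and Foxo1 -0.10 (adjusted p = 0.847).

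MEF2 targets and stress genes were likewise split. Of 21 listed, 20 were tested, with 7 higher and 13 lower, 2 and 5 of them at an unadjusted p under 0.05 (background 4.39% and 3.87%), and none after adjustment. The skeletal actin gene Acta1, a classic gene of the stressed ventricle, had 137 to 344 CPM in control and 221 to 1112 CPM in HFD+mTAC mice, with TT-590 far above the rest and a log2 difference of 1.12 (SE 0.38, edgeR adjusted p = 0.412). The calcineurin inhibitor gene Rcan1 averaged 158 ± 101 and 62.1 ± 15.6 CPM (SD, n = 5 each), a log2 difference of -1.35 (edgeR adjusted p = 0.296). Nr4a1, an immediate-early nuclear receptor gene that MEF2 and class IIa proteins regulate, averaged 36.2 ± 7.57 and 20.4 ± 8.48 CPM, a log2 difference of -0.83 (edgeR adjusted p = 0.350). Pdk4, a fuel-selection kinase, had a log2 difference of 0.60 (adjusted p = 0.600).

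All 26 genes listed as substrates, partners and opposing enzymes of HDAC6 were tested, 12 higher and 14 lower. At an unadjusted p under 0.05 there were 3 in each direction (background 4.39% higher and 3.87% lower), and none passed after adjustment. The α-tubulin genes Tuba8 and Tuba1c had the smallest p of the lower genes. Tuba1c had 52.1 to 62.3 CPM in control and 29.4 to 51.9 CPM in HFD+mTAC mice, which do not overlap, and a log2 difference of -0.44 (SE 0.13, edgeR adjusted p = 0.347). The groups did not overlap for 2 of the 26 genes (background 1.9%), and the other of them was higher in HFD+mTAC mice. Tuba8 averaged 390 ± 83.8 and 270 ± 32.7 CPM (SD, n = 5 each), a log2 difference of -0.53 (edgeR adjusted p = 0.296). The ubiquitin gene Ubb averaged 771 ± 78.8 and 926 ± 90.8 CPM, 0.26 on the log2 scale (edgeR adjusted p = 0.480), and the mitotic kinase gene Aurka was higher by 0.97 at a mean of 1.43 and 2.78 CPM (edgeR adjusted p = 0.454).

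The polyamine genes, which surround HDAC10, were all tested, 8 of 15 higher and 7 lower, with a median log2 difference of 0.03. Atp13a2, a lysosomal polyamine exporter, averaged 20.7 ± 2.10 and 25.7 ± 2.31 CPM (SD, n = 5 each), with a log2 difference of 0.31 (edgeR adjusted p = 0.404), and its relative Atp13a3 had 0.16 (adjusted p = 0.779). Sat1, the acetyltransferase that begins polyamine breakdown, had -0.45 (adjusted p = 0.625) and Odc1, which begins polyamine synthesis, -0.18 (adjusted p = 0.711).

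Among genes with a mean of at least 5 CPM, those most like each member across the 10 mice were sought by Pearson's r of log2 CPM after the group means were removed, as a description over 10100 genes. Hdac6 was most like Jrkl (0.98), Dusp18 (0.96) and Baz1b (0.96). Hdac7 was most like Lypla2 (0.99), Cuta (0.98) and Arpc1a (0.97), and Hdac9 like Bdh1 (0.96), N28178 (0.96) and Kdm7a (0.94). For Hdac5 the genes were Syvn1 (0.91), Camta2 (0.90) and Rtel1 (0.88), for Hdac4 Dusp28 (0.90), Nupl1 (0.88) and Ptprc (0.87), and for Hdac10 Ppapdc1b (0.88), Slc23a2 (0.88) and Gm13157 (0.86). Between members, the same r ran from -0.46 for Hdac4 with Hdac7 to 0.54 for Hdac5 with Hdac9. All of these values share libraries and scaling factors, and the highest of 10100 r over 10 mice are large by selection.

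Hdac6 was also set against Nppb, which encodes the natriuretic peptide that rises with wall stress, and Col3a1, a fibrillar collagen gene. The paper measured HDAC6 protein, which was raised in HFD+mTAC hearts, and reported that cardiac HDAC6 correlated positively with both genes. The values here are of Hdac6 RNA, which is another measure, and protein was not examined. Nppb averaged 487 ± 133 CPM in control and 329 ± 91.9 CPM in HFD+mTAC mice (SD, n = 5 each), a log2 difference of -0.56 (edgeR adjusted p = 0.493). Col3a1 averaged 228 ± 105 and 189 ± 60.4 CPM, a log2 difference of -0.27 (edgeR adjusted p = 0.887). Neither passed after adjustment, and both had overlapping groups.

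Across the 10 mice Hdac6 and Col3a1 ran in opposite directions. The 3 mice lowest in Hdac6, TT-583 with 18.9, TT-590 with 19.4 and TT-584 with 19.5 CPM, were the 3 highest in Col3a1, with 363, 271 and 300 CPM. On log2 CPM, Pearson's r was -0.90 (permutation p = 0.00036, adjusted over 2 relations 0.00072) and Spearman's rho -0.79 (permutation p = 0.00866, adjusted 0.0173). Without TT-583 and TT-590, the mice farthest from the median Hdac6, r was -0.84. With the group means removed r was -0.90 (permutation p = 0.00048). For Nppb r was -0.70 (permutation p = 0.0272, adjusted 0.0272), rho -0.64 (permutation p = 0.0549) and r without the 2 farthest mice -0.61.

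The relation did not hold on the other scale. On log2(deposited TPM + 1) Hdac6 had an r of -0.15 with Col3a1 (permutation p = 0.673) and of 0.19 with Nppb (permutation p = 0.592). TT-583 and TT-584 had the smallest mitochondrial shares and TT-590 did not, with 43.8, 44.0 and 49.9%, and the part of library composition in the relation was not tested. Of 13301 other genes, 26 (0.195%) had an r with Col3a1 at least as far from 0 as that of Hdac6, and 751 (5.65%) had one with Nppb. Leaving out each mouse gave r between -0.95 and -0.87 for Col3a1 and between -0.90 and -0.61 for Nppb, and the Nppb relation lost its adjusted p under 0.05 without TT-583, TT-584 or TT-589 (permutation, adjusted p = 0.0846, 0.0801 and 0.0834).

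**Figure D5:**
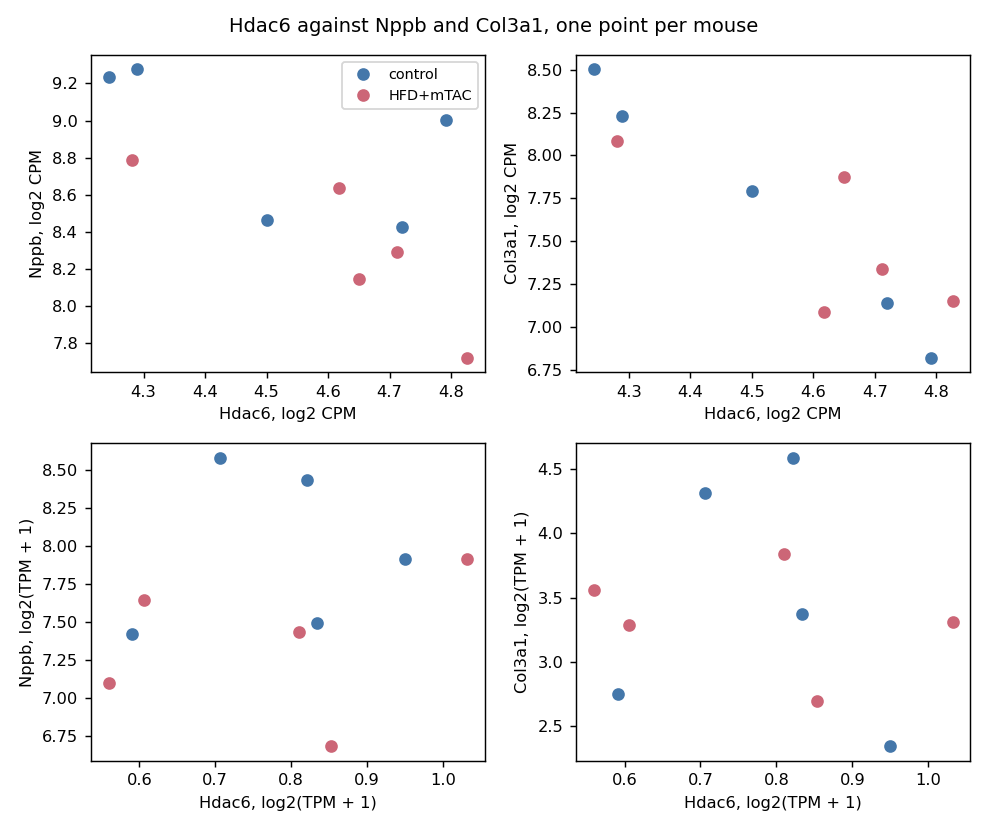
Nppb and Col3a1 against Hdac6, 1 point per mouse, with control and HFD+mTAC mice marked apart. The upper panels are on log2 CPM and the lower panels on log2(deposited TPM + 1). On log2 CPM, Pearson's r over the 10 mice is -0.70 for Nppb and -0.90 for Col3a1, and the control mice TT-583 and TT-584 lie at low Hdac6. On log2(deposited TPM + 1), r is 0.19 for Nppb and -0.15 for Col3a1.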

How the data were processed

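Polyadenylated RNA of whole left ventricle was sequenced from 5 control and 5 HFD+mTAC mice, grouped by the sample labels. The authors quantified transcripts with salmon 1.6.0 (version per the submitters' processing notes) and summed them to genes with tximport. The authors deposited estimated counts per gene without normalization, of which 20.1% are not whole, TPM values, which take transcript length into account and sum to 947577 to 965921 over the genes listed for a mouse, and effective lengths averaged per gene, in bases. Counts divided by length give the TPM within a relative difference of 0.000995. The study's methods name GENCODE release M25 on GRCm38, fastp and 50-base paired-end reads, while the labels name the human build hg38 and 100-base single-end reads. The files list mouse gene symbols. Coordinates and biotypes came from GENCODE M21, which 27812 symbols matched directly and 907 through an older symbol, while 845 did not match.

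After rounding, counts went into edgeR 4.0.16 under R 4.3.3 (TMM, quasi-likelihood, Benjamini-Hochberg adjustment over 13302 genes, threshold 0.05), with no covariate, as neither batch nor pairing is labelled. Effective lengths were tested on the log2 scale with limma 3.58.1, and TPM with limma after rescaling over the genes tested. Correlations and the order of levels on the TPM scale used the deposited values. Alternatives included DESeq2 1.42.0, other normalizations, filters and pseudocounts, a length offset and the omission of each mouse. The median length or mitochondrial share as covariate and counts per kilobase of the longest transcript were added after the data were seen. Scripts were tested on simulated data. Correlations used 100000 permutations. Libraries of 1 group differed by a chi-square per degree of freedom of at least 12.9, so none was a repeat. The mice are separate animals by their labels.

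Genes named were the 11 deacetylases, Nppb and Col3a1, for each pathway list the 2 genes with the smallest p in each direction and a mean of at least 1 CPM, and for each member the 3 genes most like it. An item that this rule selects is not reported here. The members and lists were chosen with earlier results of these data known. No cell type other than those whose markers are reported above was examined, and of the macrophage markers Adgre1 is not analysed here. Counting error is largest for Hdac10, on which 129 to 261 counts fell per mouse.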

Additional observations from a re-analysis of the deposited data

Results flagged for a closer look

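Of 36 groups of 5 values examined for a mouse far from the others (CPM, TPM and effective length of each member in each group), 2 held such a mouse, and chance alone gives about 1 in 20. Hdac5 in the HFD+mTAC mouse TT-592 was at 136 CPM, where the other 4 mice of the group were at 109 to 115 CPM, and without this mouse the Hdac5 log2 difference was -0.01 in place of 0.05. Hdac9 in the control mouse TT-585 was at 26.2 CPM, where the other 4 were at 20.5 to 21.7 CPM.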

How the results depend on the processing

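The number of genes with an adjusted p under 0.05 was 9 with edgeR, 120 with DESeq2, 1 with limma on log2(TPM + 1), 1 on log2(TPM + 0.1), 1 with the length offset and 4 with the mitochondrial share as covariate, and 1 to 9 when each mouse was left out. It was 9 without TT-591 and was 1 to 3 without any other mouse. Hdac4 passed with DESeq2 (log2 difference 0.46, adjusted p = 0.00921) and in no other setting. Hdac5 turned to -0.00968 with the length offset and to -0.0102 without TT-592, with a range of -0.0102 to 0.0898 over the omission of each mouse, and Hdac6 to -0.00459 with the mitochondrial share as covariate. With each mouse left out, Hdac6 lay between 0.04 and 0.19, Hdac7 between 0.03 and 0.15, Hdac9 between -0.20 and -0.07 and Hdac10 between 0.03 and 0.15, and no member passed. The number of genes with a changed effective length was 0, and 0 to 2 when each mouse was left out (1 without TT-589, 2 without TT-590, 1 without TT-591).

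On counts per kilobase of the longest transcript, Hdac7 over Hdac5 turned to -0.36 and Hdac9 over Hdac6 to -0.82, both past the threshold in the opposite direction (adjusted p = 0.00326 each), Hdac6 over Hdac10 passed with 0.30 (adjusted p = 0.0122), and Hdac10 over Hdac4 turned to -0.00198. The correlation of Hdac6 on log2(deposited TPM + 1) was 0.19 with Nppb and -0.15 with Col3a1, and leaving out each mouse gave -0.90 to -0.61 and -0.95 to -0.87 on log2 CPM. The cause of these changes was not tested. No paired analysis was possible because the mouse numbers of the groups are distinct.

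Length-scaled values are limited by effective lengths that exceed the transcripts of the annotation used here, and counts by 5 mice per group, which leave an interval of the fold as wide as 0.878 to 1.32 for Hdac6. Operation and diet cannot be told apart, nor can the vehicle if only HFD+mTAC mice were dosed.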
